A study of Mus musculus with 4 samples.

Results

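The genes described here are the enzymes and cofactors that write, copy and erase DNA methylation: the methyltransferases Dnmt1, Dnmt3a and Dnmt3b, the maintenance factor Uhrf1 and its paralog Uhrf2, the chromatin remodeller Hells, and the dioxygenases Tet1, Tet2 and Tet3. They were chosen by name from the gene column of the arrays, which held 19 probes for these 9 genes among 55681 probes for 36368 gene names. Expression was measured in neural stem/progenitor cells (NSPCs) from mouse embryos of strain Slc:ICR at embryonic day 13.5, grown as neurospheres in medium with EGF, basic FGF and B-27. On each of 4 Agilent SurePrint G3 Mouse arrays, RNA of cells treated with 20 µM PJ34, an inhibitor of poly(ADP-ribose) polymerases, was labelled with Cy5 and RNA of untreated control cells of the same genotype with Cy3. There were 2 arrays from wild-type and 2 from Trp53-/- NSPCs, the latter homozygous for a mutant allele of the gene for the transcription factor p53 in every cell. The labels give Slc:ICR for both genotypes, while the Trp53-heterozygous mice came from a repository and their background was not given in the sources used here, so the part of strain in comparisons between genotypes was not tested. Each RNA was prepared independently for each replicate. The dyes were never swapped, so a dye effect on a probe and the effect of PJ34 cannot be told apart within a genotype, and the time in PJ34 before RNA extraction was not given in the sources used here.

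In mammals, cytosine methylation at CpG sites is set by the de novo methyltransferases Dnmt3a and Dnmt3b and copied after each round of DNA replication by Dnmt1, which Uhrf1 guides to the half-methylated daughter strands. Hells, a chromatin remodeller, opens nucleosomal DNA to the methyltransferases, and the Tet enzymes start demethylation by oxidizing the methyl group with oxygen and 2-oxoglutarate. In dividing neural progenitors Dnmt1, Uhrf1 and Hells are known to be made mainly around S phase, whereas Dnmt3a and the Tet genes are known to act during neuronal differentiation.

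The sequences behind the results that differed most between the genotypes were those of Dnmt1, Uhrf1 and Hells. For Dnmt1 and Hells the following probes gave all values. For Uhrf1 the second probe is shown, while the brightest, which gave the values used for the gene, lay at chr17:56462770-56462829 and is not printed. The probes are in lower case because no base within them was singled out. The Dnmt1 probe lay at chr9:20711973-20712341 on the minus strand of the mouse build mm9, so that its 60 bases were spread over 369 bases of genome. The second Uhrf1 probe lay at chr17:56451668-56452321 on the plus strand, spread over 654 bases, and the Hells probe at chr19:39039914-39039973 on the plus strand, without a gap.
Dnmt1 probe: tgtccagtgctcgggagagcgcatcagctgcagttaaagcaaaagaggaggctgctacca
Uhrf1 second probe: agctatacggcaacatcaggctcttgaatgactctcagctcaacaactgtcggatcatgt
Hells probe: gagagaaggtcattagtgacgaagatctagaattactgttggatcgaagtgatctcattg

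The same genes were also the members whose promoter windows held a binding motif of E2F, the transcription factor family of the G1/S transition. The 250 bases before each gene start in RefSeq (build GRCm38.p6) were searched on both strands for the 4 octamers TTTCCCGC, TTTCGCGC, TTTGCCGC and TTTGGCGC. All 9 genes had a window, 14 windows in all, and 3 windows held an octamer, one each of Dnmt1, Uhrf1 and Hells. An octamer was present in 1.86% of all 32851 windows and in 4.56% of the 5896 windows with at least 20 CpG dinucleotides, and the windows of Dnmt1, Uhrf1 and Hells had 26, 30 and 28. The stretches below are 30 bases long with the octamer, or its reverse complement, in capitals, and read in the direction of the gene.
Dnmt1, chr9:20952824-20952853, minus strand: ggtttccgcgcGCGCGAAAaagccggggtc
Uhrf1, chr17:56304117-56304146, plus strand: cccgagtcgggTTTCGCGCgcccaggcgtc
Hells, chr19:38930917-38930946, plus strand: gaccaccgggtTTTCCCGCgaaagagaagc
The octamer began 219 bases before the third listed start of Dnmt1, 185 bases before the second start of Uhrf1 and 62 bases before the only start of Hells. Dnmt3a and Dnmt3b, and the windows of Uhrf2, Tet1, Tet2 and Tet3, held none of the 4 octamers. The hexamer TTTGAA, the cell cycle homology region, was found in 1 window of Dnmt1 and in the window of Dnmt3b, against 16.0% of all windows. These are matches of letters, and no binding was measured.

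The hybridizations left between 21506 and 24536 probes well above background in the control channel and between 26078 and 27157 in the PJ34 channel. After the filter on dim probes, 27037 probes and 20158 genes were tested, and 18 of the 19 probes of the DNA methylation genes were kept, with all 9 genes represented. Trp53 itself was measured above background on all 4 arrays, at control levels of 8.29 and 8.50 (log2 normalized intensity) in wild-type and 7.56 and 7.82 in Trp53-/- cells, and the part of the transcript that the mutation removes was not given, so this probe does not check the genotype. All 10 neural progenitor markers examined were above background in both channels of every array, and their changes are given with the other markers below. The second Trp53-/- array stood apart in sex-linked genes: its PJ34-over-control log2 ratio was 4.22 for Eif2s3y, 3.12 for Ddx3y and -3.08 for Xist, whereas on the first Trp53-/- array these ratios were -0.20, -0.20 and 0.56. Of the channels of that array, the PJ34 one had Eif2s3y and Ddx3y above background and the control one did not. The part of this in the results was not tested. The Trp53-/- calls of the 9 genes and of the replication and S-phase list are also given without that array. Those of the other lists are given only with it.

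The question of the first comparison was how PJ34 changed expression in wild-type NSPCs. Of the 9 genes, 3 fell, 1 rose and 5 did not pass the test (p and Storey's q both under 0.05). Over all genes tested, 24.9% passed in either direction, 11.3% lower and 13.6% higher. The genes that fell were Uhrf1, Dnmt1 and Hells, and the one that rose was the de novo methyltransferase Dnmt3a. None of the 9 changed by more than 2-fold, and 0.501% of all genes both passed the test and exceeded that size.

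**Figure D1:**
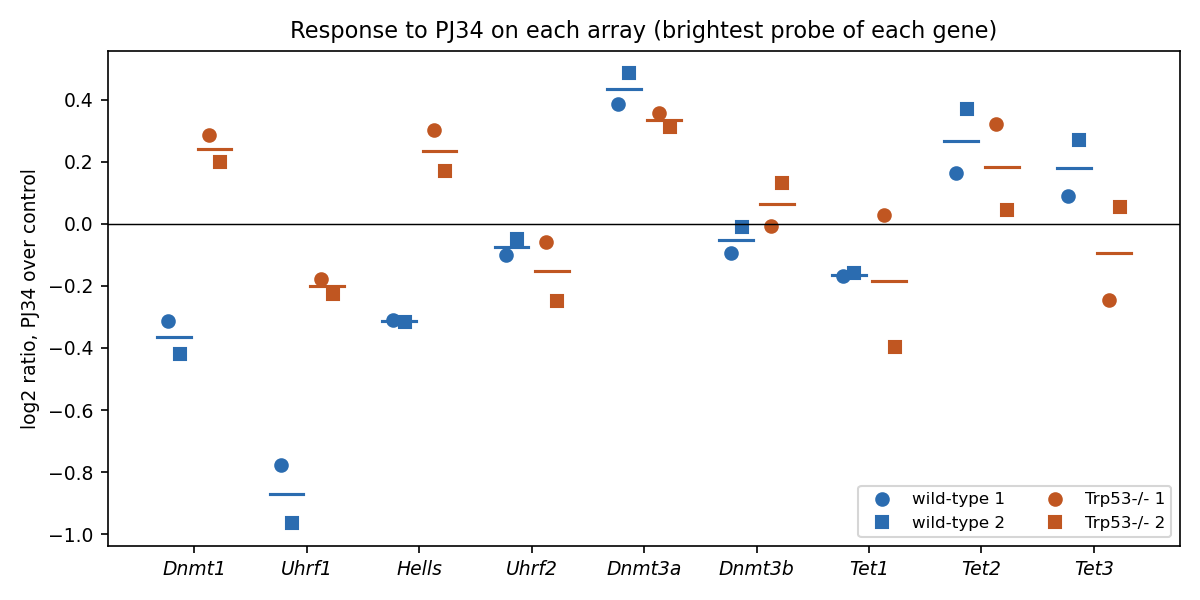
The log2 ratio of PJ34 over control is plotted for each of the 9 genes on each array, with circles for replicate 1, squares for replicate 2 and short bars for the mean of 2 arrays. The wild-type ratios of Dnmt1, Uhrf1 and Hells lie between -0.96 and -0.31, while the Trp53-/- ratios of Dnmt1 and Hells lie between 0.17 and 0.30, and Dnmt3a is above 0 on all 4 arrays.

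Uhrf1, the reader of half-methylated DNA, moved most. Its brightest probe gave log2 ratios of -0.78 and -0.96 on the wild-type arrays, a mean of -0.87 ± 0.13 (SD, n = 2), or 1.83-fold lower with PJ34 (limma, q = 0.000197). On the Trp53-/- arrays the same probe gave -0.18 and -0.23, a mean of -0.20 ± 0.03 (SD, n = 2), which did not pass the test (q = 0.0823). Both wild-type ratios were lower than both Trp53-/- ratios. How many of all genes were separated in this way was not counted, here or for the genes below. The second Uhrf1 probe, printed above, also fell in wild-type cells, with ratios of -0.41 and -0.63 (mean -0.52, q = 0.00432), and gave 0.18 and -0.13 in Trp53-/- cells.

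Dnmt1, the maintenance methyltransferase, went opposite ways in the genotypes. Its ratios were -0.31 and -0.42 in wild-type cells, a mean of -0.37 ± 0.08 (SD, n = 2), or 1.29-fold lower (q = 0.00994). In Trp53-/- cells they were 0.29 and 0.20, a mean of 0.24 ± 0.06 (SD, n = 2), or 1.18-fold higher (q = 0.0481). The groups did not overlap and lay on either side of 0. Without the second Trp53-/- array the Trp53-/- value was 0.29 (q = 0.197), and without the first it was 0.20 (q = 0.252). The wild-type call held without the first wild-type array (-0.42, q = 0.0331) and was lost without the second (-0.31, q = 0.103).

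Hells followed the same course as Dnmt1. Its ratios were -0.31 and -0.32 in wild-type cells, a mean of -0.31 ± 0.004 (SD, n = 2), or 1.24-fold lower (q = 0.0189). The call was lost without wild-type replicate 1 (q = 0.106) or 2 (q = 0.106). In Trp53-/- cells the ratios were 0.30 and 0.17, with a mean of 0.24 ± 0.09 (SD, n = 2) that narrowly missed the threshold (q = 0.0510). Again both wild-type ratios lay below both Trp53-/- ratios.

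Uhrf2, a paralog of Uhrf1, did not pass the test in either genotype. Its brightest probe gave -0.10 and -0.05 in wild-type and -0.06 and -0.25 in Trp53-/- cells, with overlapping groups. The second Uhrf2 probe gave ratios between -0.18 and -0.02 on the 4 arrays.

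Dnmt3a, a de novo methyltransferase, was higher with PJ34 in both genotypes. Its ratios were 0.39 and 0.49 in wild-type cells, a mean of 0.44 ± 0.07 (SD, n = 2), or 1.35-fold higher (q = 0.0042), and 0.36 and 0.31 in Trp53-/- cells, a mean of 0.33 ± 0.03 (SD, n = 2), or 1.26-fold higher (q = 0.0149). The 4 arrays covered a range from 0.31 to 0.49. In wild-type cells the call held without either array, and in Trp53-/- cells the value without the second array was 0.36 (q = 0.119).

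Dnmt3b, the other de novo enzyme, gave no uniform answer over its probes. The brightest probe had ratios of -0.09 and -0.01 in wild-type and -0.01 and 0.13 in Trp53-/- cells, all close to 0. A second probe fell in wild-type cells, with -0.59 and -0.15 (mean -0.37, q = 0.0245), mostly through replicate 1, and stayed at -0.002 and 0.03 in Trp53-/- cells. The third and dimmest kept probe had ratios between -0.22 and -0.04.

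The Tet genes, which start demethylation, showed no call at their brightest probes. Tet2 had ratios of 0.16 and 0.37 in wild-type cells, a mean of 0.27 ± 0.15 (SD, n = 2) just outside the threshold (q = 0.0520), and 0.32 and 0.05 in Trp53-/- cells. Its second probe, close by in the same transcript, passed in wild-type cells with ratios of 0.23 and 0.41 (mean 0.32, q = 0.0245). The remaining Tet2 probe was not kept because it was not well above background in either channel on 3 of the 4 arrays.

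Tet1 had ratios of -0.17 and -0.16 in wild-type cells and 0.03 and -0.40 in Trp53-/- cells, so that the Trp53-/- arrays disagreed by more than either genotype's distance from 0. The other Tet1 probes gave ratios from -0.02 to 0.09 in wild-type and from -0.18 to -0.11 in Trp53-/- cells, without a call. Tet3 had ratios of 0.09 and 0.27 in wild-type and -0.25 and 0.05 in Trp53-/- cells. A Tet3 probe that was not above background on the wild-type arrays fell in Trp53-/- cells, with -0.25 and -0.30 (mean -0.27, q = 0.0424), while the brightest and the remaining Tet3 probe gave means of -0.10 and -0.02 there. In wild-type cells the means of these 3 probes were -0.08, 0.18 and 0.07, none of them called.

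In Trp53-/- NSPCs as a whole, 2 of the 9 genes passed the test, Dnmt1 and Dnmt3a, both higher. This share was close to that of all genes, of which 23.3% passed in either direction (12.8% higher and 10.5% lower). With 1 Trp53-/- array left no call held, at 0.20 and 0.29 for Dnmt1 and at 0.31 and 0.36 for Dnmt3a. Fewer of all genes passed in these fits as well. Again none exceeded 2-fold, and 0.362% of all genes both passed and did so.

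The normalization set where 0 lies. With median centring in place of the intensity-dependent loess fit, the median log2 ratio of all tested genes was 0.46 in wild-type and 0.63 in Trp53-/- cells. Under that setting Dnmt1 and Hells turned to 0.23 and 0.13 in wild-type cells, and Uhrf1 to 0.73 in Trp53-/- cells. Uhrf1 stayed below 0 in wild-type cells (-0.19) but did not pass the test (limma, q = 0.107). Relative to the median of all genes, however, wild-type Uhrf1, Hells and Dnmt1 were still at -0.65, -0.33 and -0.23, Dnmt3a was at 0.59, and in Trp53-/- cells Dnmt1, Hells and Uhrf1 were at 0.42, 0.21 and 0.10. Loess values are by construction relative to genes of similar brightness, and the fall of Uhrf1, Dnmt1 and Hells in wild-type cells was measured on that scale.

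**Figure D2:**
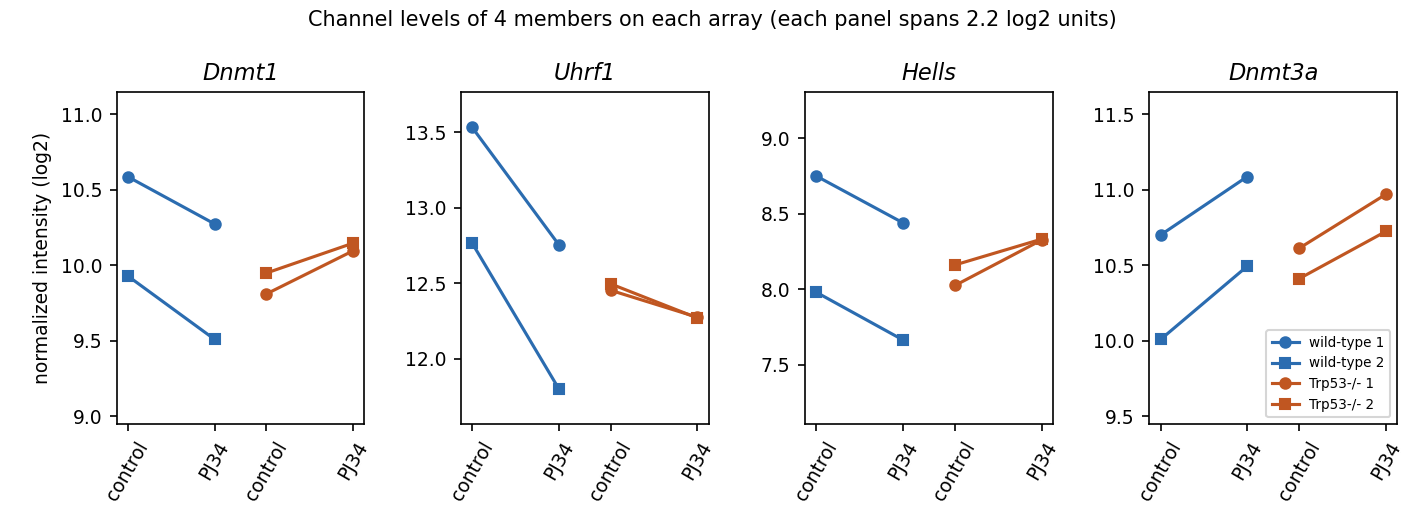
Normalized log2 intensity is plotted for Dnmt1, Uhrf1, Hells and Dnmt3a in the control and PJ34 channels of each array, with lines joining the channels of an array. The lines of Dnmt1 and Hells slope down on both wild-type arrays and up on both Trp53-/- arrays, and the 2 wild-type arrays differ in level by more than the Trp53-/- arrays.

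The levels themselves show where the genotypes met. Uhrf1 stood at 13.53 and 12.77 (log2 normalized intensity) in the wild-type controls and at 12.76 and 11.80 with PJ34, against 12.45 and 12.50 in the Trp53-/- controls and 12.27 and 12.27 with PJ34. Dnmt1 stood at 10.59 and 9.93 in the wild-type controls and 10.27 and 9.51 with PJ34, against 9.81 and 9.95 in the Trp53-/- controls and 10.09 and 10.15 with PJ34. In order of mean level Uhrf1 ran from the wild-type control through the Trp53-/- control to the PJ34 channels of both genotypes, and Dnmt1 from the wild-type control through Trp53-/- cells with PJ34 to the other conditions. The wild-type controls were 0.77 apart for Uhrf1 and 0.66 for Dnmt1, more than any step between neighbours in this order, whereas the ratio within an array was closely repeated. Hells likewise had wild-type controls of 8.75 and 7.98 and Trp53-/- controls of 8.02 and 8.16.

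The second question was whether the response to PJ34 differed between the genotypes, tested as the difference of the log2 ratios, wild-type minus Trp53-/-. The genotypes also differed in Y-linked expression and perhaps in background, so the part of p53 itself cannot be told apart. The test passed for 2 of the 9 genes, Uhrf1 and Dnmt1, both lower in wild-type. Of all genes, 1.77% passed in either direction and 0.476% in the lower one. The difference was -0.67 for Uhrf1 (SE 0.13, q = 0.0296), -0.61 for Dnmt1 (SE 0.13, q = 0.0382) and -0.55 for Hells (SE 0.13, q = 0.0537), the last just outside the threshold. For Dnmt3a it was 0.10, with a 95% interval from -0.18 to 0.38. The remaining genes had differences between -0.11 and 0.28 without a call.

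The sign of these differences held under every setting tried, though the call did not. Over the alternatives the difference ranged from -0.92 to -0.58 for Uhrf1, from -0.82 to -0.55 for Dnmt1 and from -0.79 to -0.48 for Hells. Without the second Trp53-/- array it was -0.69 (q = 0.0742), -0.65 (q = 0.0853) and -0.61 (q = 0.104), and without the first -0.65 (q = 0.0762), -0.56 (q = 0.114) and -0.48 (q = 0.178). Without the second wild-type array neither Uhrf1 (q = 0.0586) nor Dnmt1 (q = 0.0729) passed. For the second Uhrf1 probe the difference was -0.54 (q = 0.0970).

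**Figure D3:**
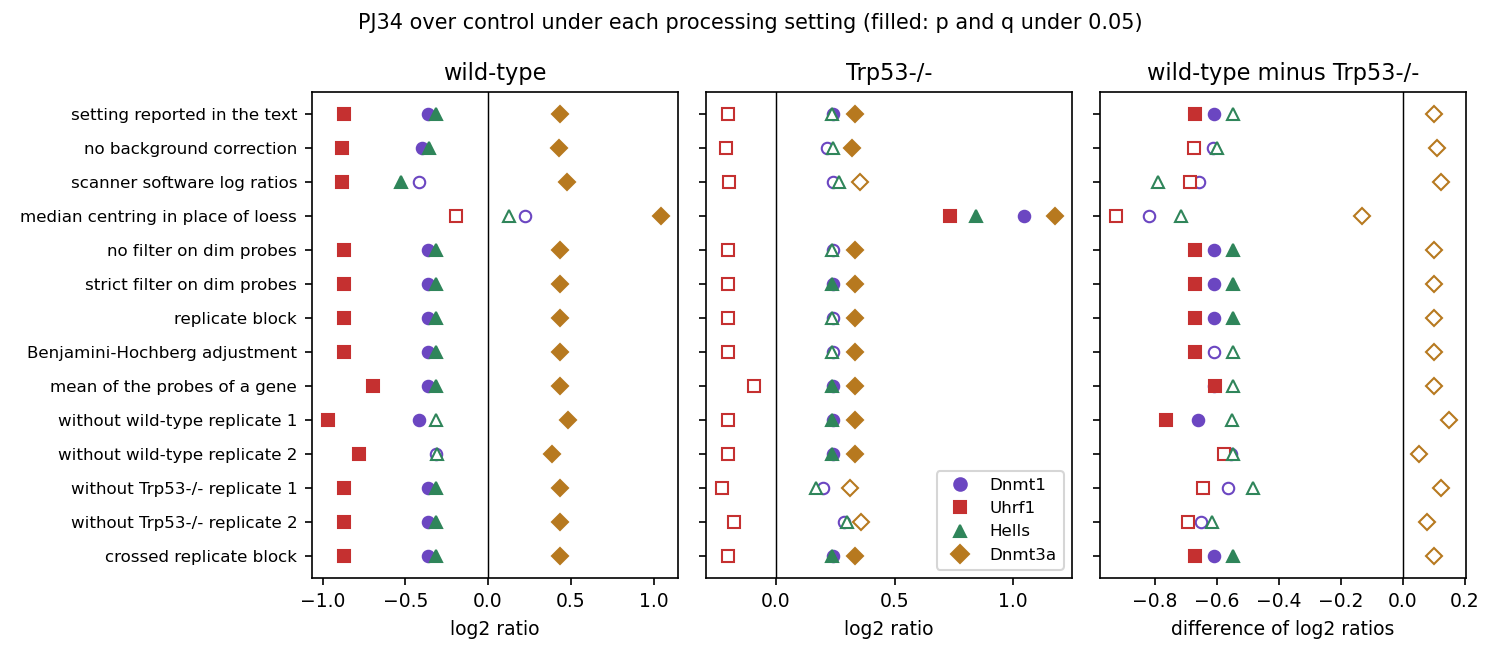
The PJ34-over-control log2 ratio of Dnmt1, Uhrf1, Hells and Dnmt3a in wild-type and Trp53-/- cells, and the difference between them, are plotted under each processing setting, with filled symbols where p and q were under 0.05. The differences of Dnmt1, Uhrf1 and Hells stay between -0.92 and -0.48 in every setting, whereas median centring moves the ratios of both genotypes upwards.

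The genes whose ratios over the 4 arrays were nearest to those of Uhrf1 were Pold1, the catalytic subunit of DNA polymerase delta, with a root mean square difference of 0.05 log2 units, and Pimreg, a gene of mitosis, with 0.08. Pold1 had ratios of -0.77, -0.97, -0.26 and -0.28 on wild-type 1 and 2 and Trp53-/- 1 and 2. Next, at 0.10, was the probe A_55_P1962707, which had no gene name. For Dnmt3a the nearest were the unnamed probe A_55_P2138130, the gene model Gm2099 and Mpv17, all at 0.02.

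Genes of DNA replication and S phase were set beside Dnmt1, Uhrf1 and Hells, since these are known to be made in S phase. Of 26 genes listed, 25 were tested. In wild-type cells 20 were lower and 0 higher with PJ34, with a median of -0.43 against 0.03 over all genes. Of all genes, 11.3% were lower and 13.6% higher there. Mcm6 and Mcm7, subunits of the replicative helicase, had -0.67 and -0.62, and Tk1, a thymidine kinase, had -0.63. With median centring the median of the list was 0.23, which lay at -0.23 relative to all genes. Under it 0 genes of the list were lower and 7 higher, where 59.1% of all genes were higher and 84 of 20158 lower.

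In Trp53-/- cells, where 12.8% of all genes were higher and 10.5% lower, 7 genes of the list were higher and 0 lower, with a median of 0.11. They were led by Tyms (0.56), which makes thymidylate, Mcm3 (0.39) and Chaf1a (0.32), a histone chaperone subunit. Without the second Trp53-/- array fewer were called higher, in the list and over all genes alike. The difference between genotypes was below 0 in 25 of 25 genes, with a median of -0.55. Of these, 8 passed the test, among them Mcm3 (-0.73), Chaf1b (-0.71) and Mcm6 (-0.70), where 0.476% of all genes passed in that direction. Without the second Trp53-/- array the median of the list was -0.58, and fewer passed, in the list and over all genes alike. Dnmt1, Hells and Uhrf1 thus lay on the side of the list in all 3 values except that Uhrf1 was also below 0 in Trp53-/- cells. Of the 21 listed genes with a promoter window, 5 held an E2F octamer.

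**Figure D4:**
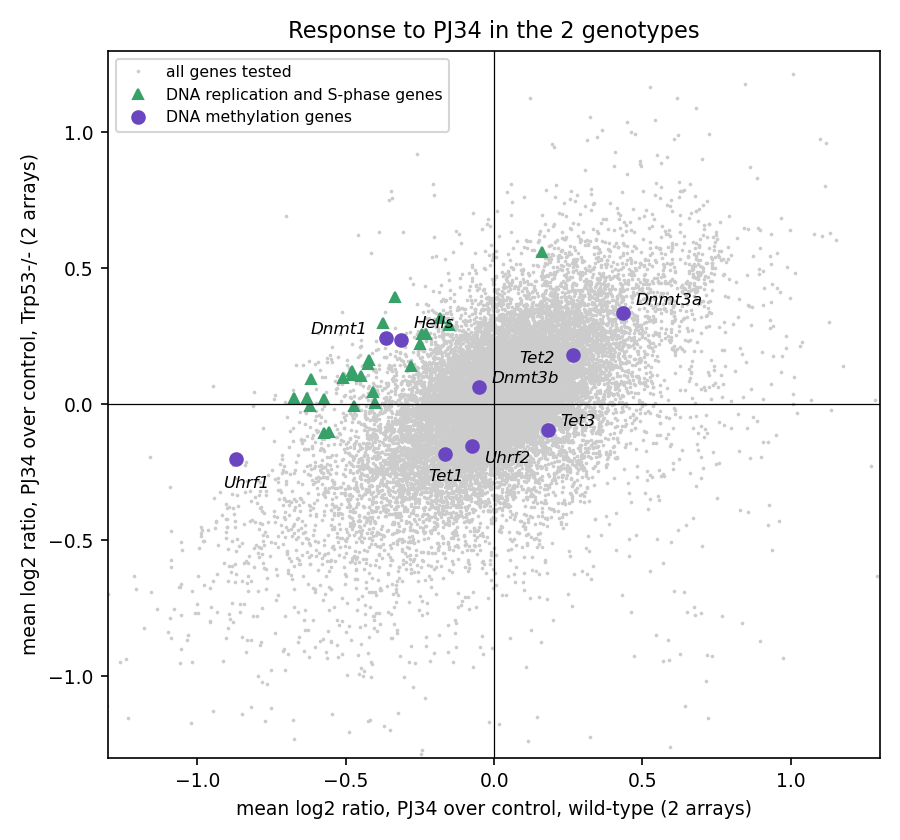
Each point is a gene, placed by its mean log2 ratio of PJ34 over control in wild-type (horizontal) and Trp53-/- NSPCs (vertical), with replication and S-phase genes as triangles and the 9 DNA methylation genes as labelled circles; genes beyond 1.3 log2 units are outside the frame. Dnmt1 (-0.37, 0.24) and Hells (-0.31, 0.24) lie among the triangles, Uhrf1 (-0.87, -0.20) lies to their left, and Dnmt3a (0.44, 0.33) lies in the opposite corner.

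Genes that work with the methyltransferases were mixed. Of 12 listed partners 10 were tested, of which 2 were higher and 4 lower in wild-type cells (median -0.09) and 3 higher and 0 lower in Trp53-/- cells (median 0.09). Over all genes, 24.9% passed in wild-type and 23.3% in Trp53-/- cells, in either direction. Cdca7, which forms a remodelling complex with Hells, was at -0.61 in wild-type cells (q = 0.0017). Ehmt1, a histone H3 lysine 9 methyltransferase, was higher in both genotypes, at 0.65 and 0.45, as was Zbtb24, a known activator of Cdca7, at 0.34 and 0.37. Trdmt1, a relative of the Dnmt genes that methylates tRNA, was at -0.43 in wild-type cells, and Kdm1b, a histone demethylase, was at 0.26 in Trp53-/- cells. No partner passed the test of the difference between genotypes.

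Among 8 readers of methylated DNA 0 were higher and 1 lower in wild-type cells, and 0 higher and 2 lower in Trp53-/- cells, where 24.9% and 23.3% of all genes passed in either direction. Mbd2, which recruits a deacetylase complex to methylated CpG, was at -0.38 and -0.36, and Zbtb4, a zinc finger reader, was at -0.34 in Trp53-/- cells. Of 8 genes of the later steps of demethylation, 1 was higher and 1 lower in each genotype. Gadd45g, a stress-induced gene linked to active demethylation, was at 0.78 in wild-type cells (q = 0.000849), Cxxc5, a CXXC zinc finger protein, was at -0.32 and -0.40, and Tdg, the glycosylase that removes oxidized methylcytosine, was at 0.28 in Trp53-/- cells.

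The supply of substrates was examined in the same way. Of 12 genes of the methyl donor cycle, 9 were tested, with 2 higher and 1 lower in Trp53-/- cells, where 23.3% of all genes passed. These were Ahcy (0.36), which clears the inhibitor S-adenosylhomocysteine, Mtrr (0.28) and Mat2a (-0.45), which makes S-adenosylmethionine. Of 11 genes of 2-oxoglutarate supply, 2 were higher and 3 lower in each genotype, where 24.9% (wild-type) and 23.3% (Trp53-/-) of all genes passed. The isocitrate dehydrogenases Idh1 (-0.48 and -0.38) and Idh2 (-0.49 and -0.33) were lower in both, Idh3a (0.45) was higher in wild-type cells, Fh1 was at -0.39 and D2hgdh at 0.38 in Trp53-/- cells. No gene of the reader, demethylation, donor and 2-oxoglutarate lists passed the test of the difference between genotypes. With median centring no gene of the partner, reader, demethylation, donor or 2-oxoglutarate lists was called lower. Of all 20158 genes only 84 were called lower in wild-type and 88 in Trp53-/- cells under that setting.

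Germline genes that DNA methylation keeps silent in somatic cells were also examined. Of 15 listed, 3 were bright enough to be tested, Brdt, Taf7l and Tex101. The dimmer ones were not tested, so these values do not read out DNA methylation. With PJ34 none of them passed, with values of 0.13, -0.08 and 0.05 in wild-type and 0.01, -0.21 and -0.10 in Trp53-/- cells (limma; at an unadjusted p under 0.05, 0 in wild-type and 1, Taf7l, in Trp53-/- cells).

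The third comparison set the untreated Trp53-/- cells against the untreated wild-type cells, on different arrays. Y-linked Eif2s3y was at 8.96 and 8.47 in the wild-type controls, and at 6.01 and 6.25, not above background, in the Trp53-/- controls. Ddx3y was likewise above background only in the wild-type controls. The part of sex in this comparison cannot be told apart from that of genotype. None of the 9 genes passed by limma, where 7.61% of all genes did (3.84% higher and 3.78% lower, and 3.81% also by over 2-fold), and 2, Dnmt3b and Uhrf1, had an unadjusted p under 0.05. Dnmt3b was at 7.82 and 7.82 in wild-type and 7.18 and 7.22 in Trp53-/- controls, a difference of -0.62 (SE 0.16, q = 0.0529) with no overlap. Its second probe gave -0.69 (q = 0.0824), and the third gave -0.02. Uhrf1 differed by -0.67 (SE 0.27, q = 0.116) at its brightest probe and by -0.05 at the second.

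The other genes had untreated differences between -0.38 (Dnmt1) and 0.30 (Uhrf2) at their brightest probes. Beyond that range were a Tet1 probe (0.35) and the Tet3 probe not above background on the wild-type arrays (0.57, limma, q = 0.0791). The wild-type level of that Tet3 probe is a floor value, and the brightest Tet3 probe gave -0.21. For Dnmt1, Dnmt3a, Uhrf1, Hells and Tet2 the first wild-type control was 0.63 to 0.77 above the second, more than the difference between the genotypes. The replication and S-phase list had a median of -0.41 with 2 genes lower (Tyms, -0.74, and Gins1, -0.70) and 0 higher. That count became 12 without the first and 18 without the second wild-type array, and 0 without either Trp53-/- array, while calls over all genes went from 7.61% to 36.8%, 44.4% and 0%. Zbtb4 was the one reader that passed, at 1.03.

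Markers of other cells moved with the genotype in the same channel. Of 7 oligodendrocyte markers 2 were higher and 1 lower in untreated Trp53-/- cells, with Mbp at 1.98 and Pdgfra at -0.71, and their summed control intensity was 11003 to 12880 in wild-type and 18226 to 18475 in Trp53-/- cells. Of 6 astrocyte markers 3 were higher and 0 lower, among them Gfap (2.38) and S100b (1.90), with sums of 31137 to 33330 and 36320 to 39018. Gfap was not above background in either channel of the first wild-type array. It was thus kept through the Trp53-/- arrays, and its wild-type level is partly a floor value. In this untreated comparison 7.61% of all genes passed. With PJ34, 3 oligodendrocyte markers were lower in wild-type and 5 in Trp53-/- cells, and 0 were higher. Astrocyte markers were higher for 1 and lower for 1 in wild-type cells, and higher for 2 and lower for 1 in Trp53-/- cells, and 1 passed the test of the difference. Neuron markers were higher for 3 of 8 genes in wild-type and 1 in Trp53-/- cells, including Syt1 at 0.55 and 0.45. On each array 6 of these 8 were above background in the control channel. The others were kept through the PJ34 channel, which favours a rise with PJ34, and their control level is a floor value. Of the 10 neural progenitor markers, 3 were higher and 3 lower in wild-type cells, and 2 higher and 2 lower in Trp53-/- cells. Untreated, 1 of them was lower in Trp53-/- cells and 0 higher. With PJ34, 24.9% of all genes passed in wild-type and 23.3% in Trp53-/- cells, in either direction. Only 2 of 6 microglia and 3 of 8 endothelial or mesenchymal markers were kept. In bulk RNA, fewer cells of a type and less RNA per cell cannot be told apart, and the part of these markers in the results above was not tested.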

How the data were processed

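Processed two-colour array files were used for 2 wild-type and 2 Trp53-/- NSPC samples. The authors deposited, per the file headers, mean and background intensity, a processed signal intensity and a log10 ratio of Cy5 over Cy3 for each spot, made with Agilent Feature Extraction 10.7.3.1; a table of normalized values deposited for the series was not used because its 4 columns name no sample. The mean signals were background-corrected (normexp, offset 50) and loess-normalized within arrays in limma 3.58.1 (R 4.3.3), with control and outlier spots given no weight; no spot was saturated. Control levels were the Cy3 log2 intensities after further Aquantile scaling. A probe was kept (48.6%) if at least 1 of its channels cleared the scanner's background test on each array of at least 1 genotype, and the brightest probe stood for a gene. RefSeq accessions named 48.9% of the probes, and the other names are those of the array design.

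One mean per genotype was fitted over the 4 arrays. The moderated test of the ratios had 10.3 degrees of freedom, 2 from a gene's own values and 8.33 from the spread over all genes. A call needed p and Storey's q under 0.05; the fold limit of 2 was an alternative. Values of second probes come from a fit over all kept probes. The RNAs are stated to be independent preparations. The p-values rest on the spread between them, pooled over both genotypes and drawn largely from all genes, and the number of arrays limits the precision. The fit was tested on simulated data with known changes, with noise drawn at each gene's moderated SD from the same fit.

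The named genes are all 9 members with each probe, at most the 3 largest called changes of each other list and comparison, Trp53, and the 3 genes nearest to each of the 2 members with the largest mean ratio; sex-linked genes and the germline genes, which did not pass, were named beyond that rule, and the values of some listed genes are not reported here. The members and lists were chosen with earlier results of these data known. Alternatives were no background correction, the scanner's own values, other normalizations, other filters, the replicate block, Benjamini-Hochberg adjustment, the mean of a gene's probes and leaving out each array.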

Additional observations from a re-analysis of the deposited data

Results flagged for a closer look

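The response to PJ34 differed between the genotypes for Uhrf1, by -0.67, and for Dnmt1, by -0.61 (log2, wild-type minus Trp53-/-), both by limma's test of the difference itself. The q values were 0.0296 and 0.0382, and on both arrays of each genotype the wild-type ratio was below the Trp53-/- ratio. The share of all genes separated in this way was not counted. Leaving out 1 array at a time gave differences from -0.76 to -0.58 for Uhrf1 and from -0.66 to -0.55 for Dnmt1. The calls did not hold in every such fit, and a group of 1 array has no spread of its own.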

How the results depend on the processing

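Of the 9 genes, 4 passed the test in wild-type cells, 2 in Trp53-/- cells, 2 for the difference and 0 untreated. Without background correction the counts were 1 in Trp53-/- cells and 0 for the difference, where 22.2% and 1.1% of all genes passed. The scanner software's log ratios gave 0 and 0, where 7.52% and 0% of all genes passed. In wild-type cells the scanner's ratios gave 3, without Dnmt1 (limma, q = 0.0555), where 10.8% of all genes passed. Median centring gave 4 in wild-type cells, all higher (Uhrf2, Dnmt3a, Tet2 and Tet3), as were 59.1% of all genes. Uhrf1, Dnmt1 and Hells were then not called in wild-type cells. Median centring gave 8 in Trp53-/- cells, all higher, as were 67.6% of all genes, and 0 for the difference, which 0.566% of all genes passed. Without a filter, and with the Benjamini-Hochberg adjustment, 1 passed in Trp53-/- cells, and the adjustment left 1 for the difference. Over all genes 11.7% and 15.3% passed in Trp53-/- cells, and 1.27% for the difference with the adjustment. With the fold limit 0 passed in each comparison. Leaving out 1 array moved the counts of the 9 genes in every comparison, and the share of all genes that passed moved too. Such fits leave 1 array in a group, so their counts are not set side by side here. Replicate numbers were not stated to mark a shared batch, and the correlation of same-numbered deviations was -0.18 for the ratios and 0.08 for the control levels, over 2 pairs. With the replicate block 4 passed in wild-type cells, 1 in Trp53-/- cells, 3 for the difference and 2 untreated (Uhrf1 and Dnmt3b, lower). Over all genes 21.7%, 20.3%, 2.78% and 15% passed under that block. With the pairs crossed, a choice made after seeing the data, the counts were 5, 3 and 3, where 32.7%, 31.7% and 5.54% of all genes passed.

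Median centring turned Dnmt1 (0.23), Hells (0.13), Uhrf2 (0.56), Tet1 (0.30) and Dnmt3b (0.35) upwards in wild-type cells, Uhrf1 (0.73), Uhrf2 (0.71), Tet1 (0.49) and Tet3 (0.30) upwards in Trp53-/- cells, and the differences of Uhrf2 (-0.16), Dnmt3a (-0.13), Tet2 (-0.065) and Tet1 (-0.18) below 0. Relative to the median of all genes, Uhrf1 in Trp53-/- cells (0.10), Uhrf2 in both genotypes (0.098 and 0.087) and the differences of Uhrf2 (-0.019) and Tet1 (-0.043) were still turned, and the others were not. The cause was not tested. The mean of a gene's probes turned Dnmt3b in Trp53-/- cells (-0.0093), the difference of Uhrf2 (-0.0063) and untreated Tet3 (0.17), and the scanner's ratios turned the difference of Tet1 (-0.0018). Leaving out 1 array gave ranges across 0 for Tet1 (-0.40 to 0.028), Tet3 (-0.25 to 0.055) and Dnmt3b (-0.0063 to 0.13) in Trp53-/- cells, for the differences of Uhrf2 (-0.017 to 0.17), Tet2 (-0.054 to 0.22) and Tet1 (-0.19 to 0.23), and for untreated Dnmt3a (-0.19 to 0.50), Tet2 (-0.49 to 0.14), Tet1 (-0.0078 to 0.55) and Hells (-0.66 to 0.11). A lone array was assumed to vary like the other genotype's. A slide block was not run, since every array had a slide of its own.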
